A study of Rattus norvegicus with 12 samples.

Results

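Nfil3, the C/EBP factors Cebpa, Cebpb, Cebpd and Cebpg, and the PAR bZIP factors Dbp, Tef and Hlf were followed in F11 cells given the adenylyl cyclase activator forskolin. The 8 genes were taken as every probe that carries one of these names in the scanner files, which gave 9 probes on 18 spots among 41012 probes for 35537 genes or unnamed transcripts. F11 cells are an established hybrid of mouse neuroblastoma cells and rat sensory neurons, and whether mouse transcripts bind the rat probes was not tested. Cells stood for 3 h in low-serum medium with 0.5% FCS and then received 10 µM forskolin for 2, 4, 24 or 48 h, with 3 samples at each time. RNA of forskolin-treated cells carried the green dye Cy3 on 12 two-colour Agilent arrays. RNA of F11 cells kept 3 h in low serum with no forskolin carried the red dye Cy5 on all 12 arrays and served as the common reference. All values are log2 ratios of green over red, so 0 is the reference level. The dyes were not swapped, so a dye effect of a gene stays in its change against the reference and cancels between times. The reference counts as 1 control sample whose own spread is not measured, and later hours in low serum and forskolin cannot be told apart. The labels do not say whether replicates were separate cultures, so each p-value describes spread among the samples at hand, which may be technical.

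Basic leucine zipper factors bind DNA as dimers. Nfil3, also called E4BP4, is mainly a repressor and binds the D-box, a sequence that the PAR activators Dbp, Tef and Hlf also bind and that resembles the C/EBP site. Nfil3 and the PAR factors act as opposing outputs of the circadian clock, and Cebpb and Cebpd are early responders to cyclic AMP, cytokines and injury in neurons and other cells. Cebpg lacks a strong activation domain and works mostly as a dimer partner, and Cebpa is best known for arresting growth in fat, liver and myeloid cells.

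The probes decide which transcripts were measured, and those of the members that moved most, together with the pair of most similar probes, were as follows. Each is a 60-base oligonucleotide, written as in the scanner files, which place it on rat build rn3. The Nfil3 probe is at chr17:18107192-18107251 on the plus strand, and the Cebpb probe at chr3:158733316-158733375 on the plus strand. The Dbp probe is at chr1:96256131-96256190 on the plus strand. The Tef probe is at chr7:120210960-120211019 on the plus strand, and the Hlf probe at chr10:78764344-78764403 on the minus strand. Gene models of that build were not used here, so exons were not assigned. In the Tef and Hlf probes capitals mark the bases that are identical when both are laid side by side without gaps.
Nfil3 probe: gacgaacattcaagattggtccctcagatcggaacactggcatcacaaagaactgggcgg
Cebpb probe: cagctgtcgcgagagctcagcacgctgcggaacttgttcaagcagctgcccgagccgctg
Dbp probe: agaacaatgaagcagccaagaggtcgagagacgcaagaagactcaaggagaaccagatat
Tef probe: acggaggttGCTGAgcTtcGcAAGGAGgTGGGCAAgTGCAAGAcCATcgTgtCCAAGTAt
Hlf probe: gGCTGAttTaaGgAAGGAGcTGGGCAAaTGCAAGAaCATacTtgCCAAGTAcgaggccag
The Tef and Hlf probes matched at 38 of 52 aligned bases, or 73.1%. No other pair of members' probes had more than 24 identical bases, with a smallest overlap of 30 bases compared. How far Tef transcript binds the Hlf probe, or the reverse, was not tested.

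RefSeq windows on build GRCr8 from 250 bases before to 50 bases after the gene start were at hand for 6 of the 8 members, all but Cebpd and Hlf. They were searched on both strands for the cyclic AMP response element TGACGTCA and the core that makes up its first 5 bases, the D-box TTANGTAA, the C/EBP site TTGCNNAA and the E-box CACGTG. Every full element also counts as a core, and any base may stand at N. Nfil3 and Cebpb, the highest members at 2 and 4 h, held the core, and their upstream bases are shown with each match in capitals. The Nfil3 stretch is chr17:12432126-12432375 and the Cebpb stretch chr3:176816755-176817004, both on the plus strand.
Nfil3 upstream: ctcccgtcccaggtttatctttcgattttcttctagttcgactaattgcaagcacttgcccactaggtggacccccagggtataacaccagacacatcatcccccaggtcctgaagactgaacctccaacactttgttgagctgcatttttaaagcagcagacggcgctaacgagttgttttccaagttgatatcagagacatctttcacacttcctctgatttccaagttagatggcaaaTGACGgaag
Cebpb upstream: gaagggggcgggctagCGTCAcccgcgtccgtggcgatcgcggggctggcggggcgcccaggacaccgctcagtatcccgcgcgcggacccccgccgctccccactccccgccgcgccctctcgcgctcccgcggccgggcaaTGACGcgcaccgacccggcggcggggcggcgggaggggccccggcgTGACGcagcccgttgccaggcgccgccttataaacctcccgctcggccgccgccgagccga
Nfil3 held 1 match, whose first base is at -9 from the start. Cebpb held 3 matches, at -234, -107 and -61, the farthest in reverse orientation. Among 33469 rat windows of the same length, 21.2% held the core and 1.83% the full element. The D-box was in 2.24%, the C/EBP site in 10.6% and the E-box in 6.42% of the windows. Tef held 1 E-box at -198, and the windows of Cebpa, Cebpg and Dbp held none of these letters. A match is a description of letters and not evidence of binding.

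Of 43379 spots other than controls, between 19889 and 21973 per array were well above background in green and between 19504 and 23285 in red. On all 12 arrays and in both channels, 13 of 15 neuronal and neuroblastoma markers were well above background. Glial, fibroblast and leukocyte markers at that standard in green numbered 2 of 7, 2 of 6 and 0 of 6, and S100b, Gfap, Dcn, Lum, Cd14, Itgam and Aif1 were not well above background on any array. Of 13 neuronal markers tested, 5 were higher and 6 lower at 4 h, with a median log2 ratio of -0.1. At 48 h 10 were higher and 1 lower, with a median of 0.57. Of 3 glial markers tested, 2 were lower and 0 higher at 4 h and again at 48 h. Of all genes tested, 19.7% were higher and 30.4% lower at 4 h, and 27.1% and 30.6% at 48 h. The part of these shifts in the members' values was not tested. Each slide carried 1 replicate of every time and each time kept 1 position, so position and time cannot be told apart.

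Nfil3 and Cebpb rose early, Dbp rose late, and Hlf changed direction between 4 and 24 h. In RNA of whole cultures, more cells with a transcript and more of it per cell cannot be told apart. Tests covered 7 of the 8 members, since Cebpa was not well above background on any array. At 2 h, 3 of 7 were higher than the reference, Nfil3, Cebpb and Cebpg, and 0 were lower, at a limma p adjusted by Benjamini-Hochberg under 0.05. Of all 17635 genes tested, 10.1% were higher and 18.5% lower at that time. At 4 h, 4 members were higher, with Hlf joining them, and Dbp alone was lower, against 19.7% and 30.4% of all genes. At 24 h, Nfil3, Cebpb, Cebpd and Dbp were higher and Tef and Hlf lower, so 4 and 2 members stand beside 24.4% and 29.5% of all genes. At 48 h, Cebpb and Dbp were higher, and the 4 members Nfil3, Cebpg, Tef and Hlf were lower, beside 27.1% and 30.6%. The members' median log2 ratio was 0.05, 0.16, 0.19 and -0.11 in order of time, while that of all genes lay between -0.035 and -0.019. Across the 4 times, 6 of 7 members varied by the F test, all but Tef, against 53.9% of all genes.

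**Figure D1:**
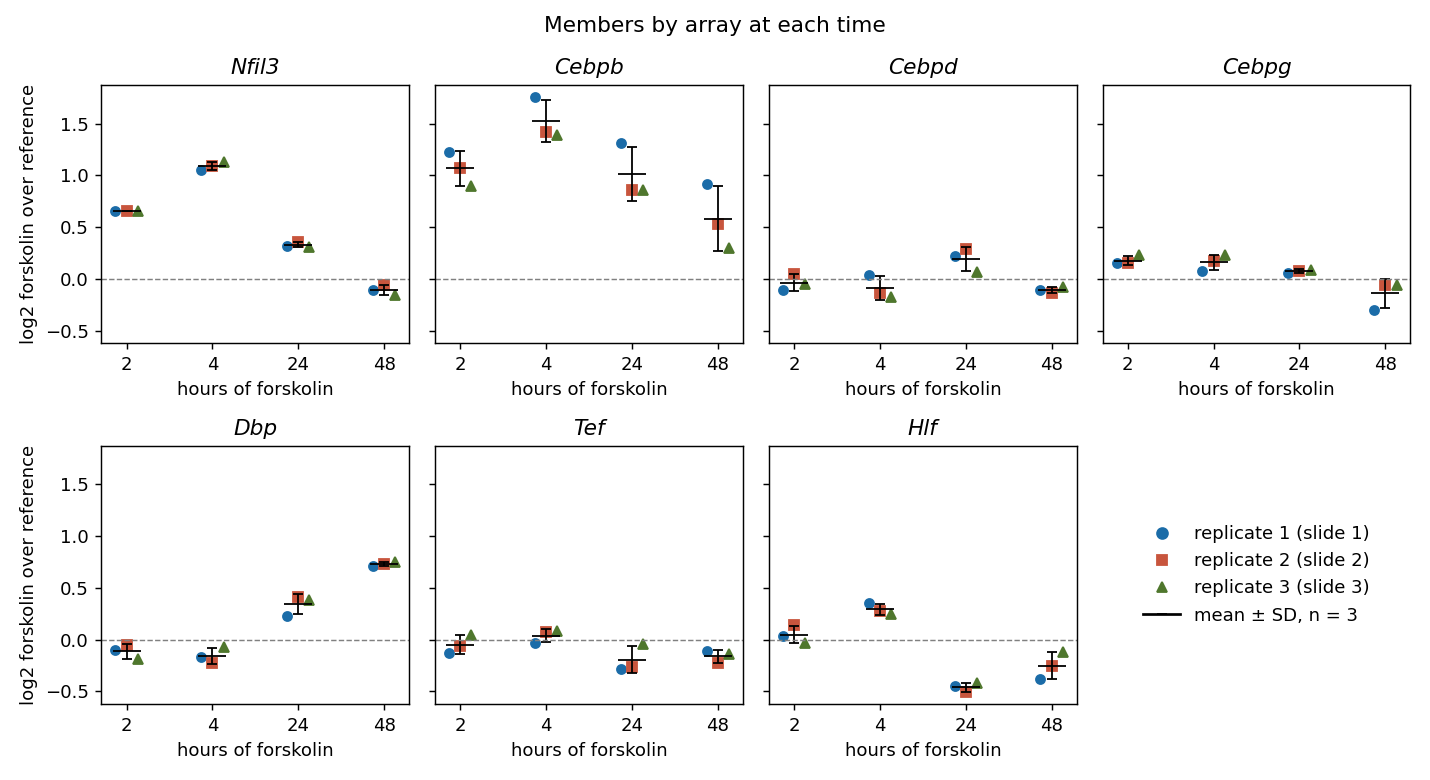
Log2 ratio of forskolin over reference (vertical axis) against hours of forskolin (horizontal axis) for the 7 members tested; symbols are single arrays, bars the mean ± SD of 3 arrays, and the dashed line the reference. Nfil3 and Cebpb peak at 4 h, at 1.09 and 1.53, while Dbp is below 0 at 2 and 4 h, at -0.11 and -0.16, and highest at 48 h, at 0.73.

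Nfil3, the repressor, was 0.66 on each of the 3 arrays at 2 h. At 4 h it read 1.05, 1.09 and 1.13 on replicates 1 to 3, and at 24 h 0.32, 0.36 and 0.31. The 48 h arrays read -0.11, -0.06 and -0.16. No 2 times overlapped, and 4 h was highest and 48 h lowest. The 4 h mean of 1.09 ± 0.04 (SD, n = 3) is 2.13-fold over the reference, with a 95% interval of 1.01 to 1.17 on the log2 scale and a limma adjusted p of 5.6e-11. Nfil3 was at the 99.5th percentile of all genes' log2 ratios at 2 h and at the 99.6th at 4 h. Between 2 and 4 h it gained 0.43 (SE 0.052, limma adjusted p = 6.6e-05). It then fell by 0.76 to 24 h (limma adjusted p = 6.1e-08) and by 0.44 to 48 h (limma adjusted p = 6.5e-05), with the same direction on 3 of 3 slides at each step. The 24 h mean of 0.33 turned to -0.12 when arrays were centred on their median in place of loess, and the 2 h mean became 0.18 (limma adjusted p = 0.065). Under the same centring the 48 h mean was -0.56 (limma adjusted p = 1.4e-05), and the steps from 2 to 4 h and from 24 to 48 h lost their calls at 0.39 and -0.44 (limma adjusted p = 0.15 and 0.096). The call at 48 h (limma adjusted p = 0.02) was lost without replicate 1 at 48 h (limma adjusted p = 0.061) and without replicate 3 (limma adjusted p = 0.13). It was also lost with offset 0, with processed signals and with no filter on dim probes (limma adjusted p = 0.086, 0.055 and 0.072).

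Cebpb, which encodes C/EBP beta, an activator with a shorter repressing form that these arrays do not separate, was above the reference on all 12 arrays. Its log2 ratios on replicates 1 to 3 were 1.23, 1.07 and 0.90 at 2 h and 1.76, 1.42 and 1.39 at 4 h. They were 1.31, 0.86 and 0.86 at 24 h and 0.92, 0.53 and 0.30 at 48 h. Replicate 1 was the highest at every time. The 4 h arrays lay above all others, those of 2, 24 and 48 h overlapped, and each slide by itself was highest at 4 h and lowest at 48 h. The mean at 4 h was 1.53 ± 0.20 (SD, n = 3), or 2.88-fold (limma adjusted p = 1.2e-07), and at 48 h it was 0.59 ± 0.31, or 1.5-fold (limma adjusted p = 5e-04). Under median centring the 48 h mean was 0.11 (limma adjusted p = 0.34). At 4 h Cebpb stood at the 99.8th percentile of all genes.

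The rise of Cebpb from 2 to 4 h was 0.46 (SE 0.16) and missed the threshold, with a limma adjusted p of 0.07. With the slide as a block the same difference had a limma adjusted p of 0.00056, and single slides gave 0.54, 0.35 and 0.49. It also passed without replicate 1 at 24 h (limma adjusted p = 0.047) or at 48 h (limma adjusted p = 0.032), which changes the spread and not the difference. Its fall of -0.52 from 4 to 24 h passed (limma adjusted p = 0.019). That call was lost without replicate 1 at 4 h (limma adjusted p = 0.086), replicate 2 at 24 h (limma adjusted p = 0.076) or replicate 3 at 24 h (limma adjusted p = 0.079). From 24 to 48 h it changed by -0.42 (limma adjusted p = 0.099), with -0.39, -0.32 and -0.56 on the 3 slides and a limma adjusted p of 0.00099 with the block. That step also passed without replicate 1 at 48 h, at -0.59 (limma adjusted p = 0.018).

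Cebpb is the only member printed many times on the array, at 10 spots. The SD between those spots ran from 0.022 to 0.052 on single arrays, while the SD between arrays of a time ran from 0.16 to 0.31. At 48 h the spots spanned 0.87 to 0.95 on slide 1, 0.43 to 0.60 on slide 2 and 0.23 to 0.38 on slide 3, with no overlap. The spread of Cebpb thus lies between arrays and not between spots of an array. Of all genes tested, 8.24% were highest on slide 1 at all 4 times, and Cebpb was the only member that was.

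**Figure D2:**
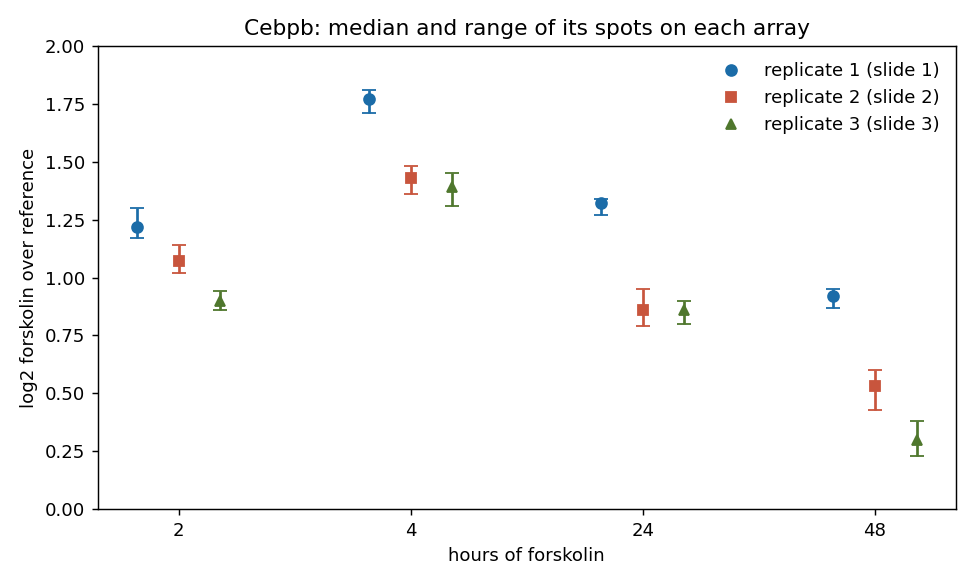
Median (symbol) and range (bars) of the log2 ratio over the Cebpb spots of each array, against hours of forskolin, with 1 symbol and colour for each slide. Spots of an array lie close together, and slide 1 is above slides 2 and 3 at every time, with 1.77 against 1.43 and 1.39 at 4 h.

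The other C/EBP members had smaller changes after loess. Cebpd, which encodes C/EBP delta, an acute-phase activator, read 0.22, 0.29 and 0.07 at 24 h on replicates 1 to 3, a mean of 0.19 ± 0.11 (SD, n = 3). This was its only call against the reference (limma adjusted p = 0.0069), and it turned to -0.18 under median centring and missed the threshold without replicate 2 at 24 h (limma adjusted p = 0.08). Means at 2, 4 and 48 h were -0.04, -0.09 and -0.11, with limma adjusted p of 0.63, 0.18 and 0.088. Under median centring these became -0.41, -0.47 and -0.51 and were called lower (limma adjusted p = 0.00066, 0.00015 and 7.7e-05). The 95% interval at 4 h was -0.20 to 0.02. Cebpd gained 0.28 from 4 to 24 h (limma adjusted p = 0.0077) and lost it again, by -0.30, to 48 h (limma adjusted p = 0.013). The latter call was lost without replicate 2 at 24 h (limma adjusted p = 0.065) or at 48 h (limma adjusted p = 0.053).

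Cebpg, the dimer partner, has 2 probes, and the brighter one read 0.15, 0.15 and 0.23 at 2 h and 0.08, 0.17 and 0.23 at 4 h. Its means of 0.18 and 0.16 passed (limma adjusted p = 0.018 and 0.017), but both turned under median centring, to -0.29 and -0.30. The 2 h call was lost without replicate 2 or 3 at 2 h (limma adjusted p = 0.055 and 0.13), and the 4 h call without replicate 2 or 3 at 4 h (limma adjusted p = 0.072 and 0.13). The 24 h mean was 0.07 (limma adjusted p = 0.22). At 48 h the arrays read -0.30, -0.06 and -0.06, a mean of -0.14 (limma adjusted p = 0.025), which was -0.06 without replicate 1 (limma adjusted p = 0.3). The other probe read -0.05, 0.04 and -0.03 on average at the first 3 times and -0.20 at 48 h, where it passed in a fit of all probes (limma adjusted p = 0.021). Both probes thus had a lower mean at 48 h, with replicate 1 at -0.30 on each, and differ on the early rise. The other probe was dim, with green well above background on 2 of 3 arrays at 48 h. The 48 h call of the brighter probe was also lost with offset 0, processed signals and no filter on dim probes (limma adjusted p = 0.078, 0.057 and 0.053).

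Cebpa was well above background on 0 of 12 arrays in either channel, so it has no fold change here. Its median signal was 1.27 times the local background in green and 1.21 times in red.

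Dbp, a PAR activator with a strong daily rhythm in many tissues, was highest at 48 h, the time at which Nfil3 was lowest. At 4 h it read -0.17, -0.23 and -0.07 on replicates 1 to 3, a mean of -0.16 ± 0.08 (SD, n = 3, limma adjusted p = 0.011). The 24 h arrays read 0.23, 0.41 and 0.38 and the 48 h arrays 0.71, 0.73 and 0.75. All 48 h arrays were above all 24 h arrays, and those above all earlier ones. The 48 h mean of 0.73 ± 0.02 is 1.66-fold over the reference (limma adjusted p = 9.6e-09) and lies at the 96.7th percentile of all genes. Its size moved with the processing, to 1.01 with offset 0, 1.14 with processed signals and 0.61 under median centring. Dbp gained 0.50 from 4 to 24 h (limma adjusted p = 3e-05) and 0.39 from 24 to 48 h (limma adjusted p = 0.0011), on 3 of 3 slides each. At 2 h the mean was -0.11 (limma adjusted p = 0.087). With no background correction and with processed signals it was -0.16 and -0.31 and was called lower (limma adjusted p = 0.0045 and 0.0039). The step from 2 to 4 h, -0.05, did not pass (limma adjusted p = 0.69) and was 0.04 with processed signals. The call at 4 h was lost without replicate 1 (limma adjusted p = 0.052) or replicate 2 (limma adjusted p = 0.1) at that time, and under median centring the 4 h call and that of the last step were lost (limma adjusted p = 0.28 for both).

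Hlf, the PAR factor first known as a fusion partner in leukaemia, was near the reference at 2 h, at 0.04, 0.14 and -0.03. It read 0.35, 0.28 and 0.25 at 4 h, -0.45, -0.51 and -0.42 at 24 h, and -0.38, -0.25 and -0.12 at 48 h. The 4 h arrays lay above all others and the 24 h arrays below all others. The mean of 0.29 ± 0.05 (SD, n = 3) at 4 h was higher (limma adjusted p = 0.00026), and that of -0.46 ± 0.04 at 24 h lower (limma adjusted p = 3.5e-06), though green was well above background on 1 of 3 arrays there. The size at 24 h moved with the processing, to -1.12 with normexp offset 0, -1.87 with processed signals and -0.19 under median centring. Under that centring the 2 h mean was 0.31 and was called higher (limma adjusted p = 0.0022). Hlf also lost its 48 h call there, at -0.06 (limma adjusted p = 0.53). From 4 to 24 h it changed by -0.75 (limma adjusted p = 1.5e-06), on 3 of 3 slides, which was -1.65 with offset 0 and -2.61 with processed signals. Its gain of 0.24 from 2 to 4 h passed (limma adjusted p = 0.033) and was lost without any 1 of the arrays that are replicates 1 or 3 at 2 h or replicates 1, 2 or 3 at 4 h (limma adjusted p between 0.06 and 0.12). The same call was lost with offset 0, processed signals, no filter on dim probes and median centring (limma adjusted p = 0.067, 0.17, 0.077 and 0.76). The return by 0.21 from 24 to 48 h did not pass (limma adjusted p = 0.064), but did without replicate 1 at 48 h, at 0.28 (limma adjusted p = 0.017). It also passed with the authors' values at 0.31, with offset 0 at 0.58 and with processed signals at 1.1 (limma adjusted p = 0.036, 0.022 and 0.018).

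Tef, the PAR factor named for the thyrotroph cells of the pituitary, read -0.28, -0.26 and -0.04 at 24 h and -0.11, -0.23 and -0.14 at 48 h, with means of -0.19 ± 0.13 and -0.16 ± 0.06 (SD, n = 3). Both were called lower (limma adjusted p = 0.0071 and 0.016), but under median centring they turned to 0.19 and 0.21, and Tef was called higher at all 4 times. With offset 0 the means were -0.53 at 24 h and -0.46 at 48 h. The 24 h call was also lost without replicate 1 (limma adjusted p = 0.074) or 2 (limma adjusted p = 0.064), and the 48 h call without replicate 2 (limma adjusted p = 0.12). Means at 2 and 4 h were -0.05 and 0.04. Its change over the 4 times had a limma adjusted p of 0.052 by the F test.

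Between successive times, 2 of 7 members were called from 2 to 4 h, beside 15.9% of all genes, and these were Nfil3 and Hlf, both upward. From 4 to 24 h, 6 of 7 were called, beside 39.1% of all genes. Cebpd and Dbp rose at that step, and Nfil3, Cebpb, Tef and Hlf fell, while Cebpg did not pass. The fall of Tef, -0.23 (limma adjusted p = 0.024), was lost without replicate 2 or 3 at 4 h or replicate 1 or 2 at 24 h (limma adjusted p between 0.072 and 0.099). The step from 24 to 48 h had 3 calls, beside 15.0% of all genes, with Dbp upward and Nfil3 and Cebpd downward.

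The balance of the repressor and the other factors was described within each array, as the log2 change of Nfil3 minus that of the other gene. No test was run on these differences, and they compare changes, not amounts of RNA. Nfil3 stood below Cebpb on all 3 arrays of every time, by means from -0.41 ± 0.16 (SD, n = 3) at 2 h to -0.69 ± 0.30 at 48 h. Against Dbp the order turned over time. Nfil3 was ahead by 0.77 ± 0.07 at 2 h and 1.25 ± 0.07 at 4 h, level at -0.01 ± 0.09 at 24 h, and behind by -0.84 ± 0.06 at 48 h. At 2, 4 and 48 h the 3 arrays shared 1 sign, and at 24 h 1 of 3 arrays was above 0. Under median centring the means were 0.22, 0.67, -0.43 and -1.17. The 48 h mean was -1.1 with offset 0 and -1.24 with processed signals.

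Against Hlf, Nfil3 was ahead on 3 of 3 arrays at 2, 4 and 24 h, by 0.61, 0.80 and 0.79. By 48 h the mean was 0.14 ± 0.16, with 2 of 3 arrays above 0. Under median centring the means at the 4 times were -0.13, 0.10, 0.08 and -0.50. The 24 h mean was 1.5 with offset 0 and 2.24 with processed signals, so the size of this difference depended on the processing. Against Tef it was ahead by 0.71, 1.05 and 0.52 at 2, 4 and 24 h, and the 48 h mean was 0.05 ± 0.11. Under median centring these became -0.24, 0.13, -0.30 and -0.76. Against Cebpd the lead of 1.18 ± 0.15 at 4 h had shrunk to 0.14 ± 0.09 at 24 h and to a mean of 0 at 48 h. Against Cebpg it was 0.93 ± 0.03 at 4 h and 0.03 ± 0.15 at 48 h.

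**Figure D3:**
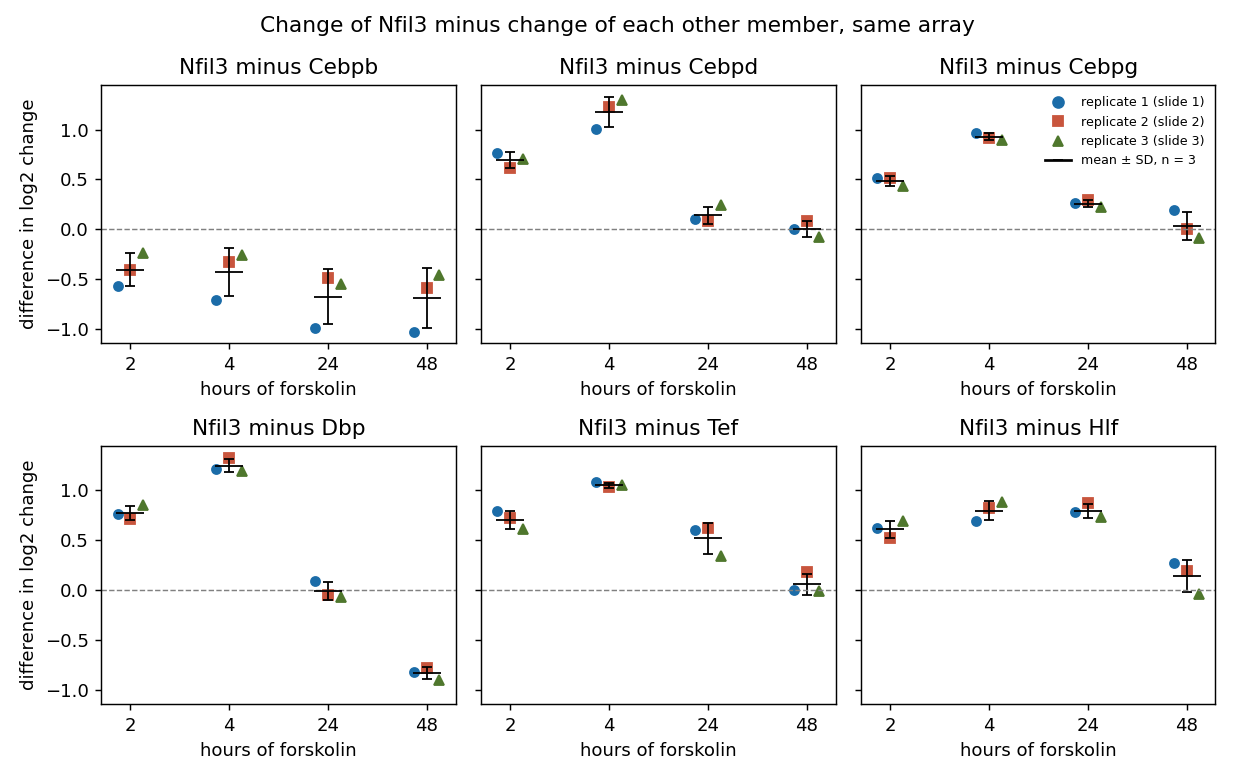
Log2 change of Nfil3 minus the log2 change of each other member on the same array (vertical axis) against hours of forskolin, with single arrays as symbols and the mean ± SD of 3 arrays as bars. The difference from Dbp runs from 1.25 at 4 h to -0.84 at 48 h, and that from Cebpb is below 0 on all 12 arrays.

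Genes with a pattern most like a member were ranked by Pearson r over the 12 arrays, among 2463 genes that passed the F test and whose time means spanned at least 0.5. All points share the reference and fall into 4 times, so r is only a ranking. For Nfil3 these were Cdv3 (r = 0.990), the transcription factor subunit Gtf2f2 (0.989), the oligosaccharyltransferase subunit Stt3b (0.988), Snrnp25 (0.986) and the peroxiredoxin Prdx4 (0.985). Their log2 ratios at 4 h were 0.13 to 0.39, below that of Nfil3, and at 48 h they were -0.57 to -0.25. For Cebpb they were the secretory cargo receptor Tmed2 (r = 0.972), Lyset (0.965), the deadenylase subunit Cnot8 (0.955), Tiprl (0.951) and Cwc15 (0.950), with 4 h values of 0.24 to 0.52. At 24 h they were at -0.11 to 0.14 and at 48 h at -0.40 to -0.02, against 1.01 and 0.59 for Cebpb. They thus share the shape over time and not the height above the reference. For Dbp they were progranulin, Grn (r = 0.994), Ypel3 (0.989), Dnah1 (0.988), the muscle enolase Eno3 (0.987) and the calcium-binding S100a6 (0.987). These 5 reached 0.72 to 1.64 at 48 h, against 0.73 for Dbp.

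Among 11 relatives and regulators of C/EBP factors, 8 could be tested. At 2 h 2 were higher, at 4 h 2 higher and 3 lower, at 24 h 4 higher and 2 lower, and at 48 h 4 higher and 1 lower. Of all genes, 10.1%, 19.7%, 24.4% and 27.1% were higher and 18.5%, 30.4%, 29.5% and 30.6% lower at these times. The list's median log2 ratio ran from -0.11 at 4 h to 0.15 at 24 h. Ddit3, or CHOP, a stress-induced C/EBP that blocks other C/EBPs by pairing with them, was highest at 24 h, at 1.01, 1.08 and 0.97 on replicates 1 to 3 (limma adjusted p = 4.2e-10). Its smaller values at 2, 4 and 48 h, 0.26 to 0.32, were called higher but turned below 0 under median centring. Atf5, a stress-responsive partner of the same class, reached 1.25 ± 0.06 (SD, n = 3) at 24 h and 1.60 ± 0.04 at 48 h (limma adjusted p = 8.9e-12). Its values at 2 and 4 h, 0.22 and 0.36, turned to -0.67 and -0.45 under median centring.

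Trib2, a Tribbles adaptor that marks C/EBP alpha for degradation, fell by 1.02 ± 0.10 at 4 h (limma adjusted p = 1.4e-08). It was 0.35 ± 0.17 at 48 h, which turned to -0.11 under median centring. Trib1, its relative, was called lower at 24 h (limma adjusted p = 0.002), where green was not well above background on any of 3 arrays. The reference was at least 1.15-fold higher there, with the dim channel set to the higher of its own signal and the lowest signal well above background, and the direction turned under median centring, to 0.25. Batf3, an AP-1 partner, was -0.83 ± 0.05 at 48 h (limma adjusted p = 1.4e-08).

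Of 16 clock genes listed, 14 were on the array and 9 tested. At 2 h 4 were higher and 1 lower, at 4 h 2 and 4, at 24 h 2 and 2, and at 48 h 1 and 2. The higher shares of all genes were 10.1%, 19.7%, 24.4% and 27.1%, and the lower shares 18.5%, 30.4%, 29.5% and 30.6%. The list's median moved between -0.08 at 4 h and 0.11 at 2 h. Bhlhe41, or DEC2, an E-box repressor, rose most in the list at every time, with 3.24, 3.24 and 3.14 on the 2 h arrays and a mean of 1.93 ± 0.06 (SD, n = 3) at 48 h (limma adjusted p = 1.2e-12). Per2, a clock repressor whose promoter holds a D-box, was at -0.53, -0.68 and -0.62 at 4 h (limma adjusted p = 3.5e-07), when Nfil3 was highest, and at 0.03 at 24 h. Cry1, another clock repressor with D-box control, was -0.17 at 2 h and was not called at 4 h, at -0.08 (limma adjusted p = 0.17). It was -0.40 at 24 h and -0.56 ± 0.06 at 48 h (limma adjusted p = 9.3e-08), when Nfil3 was lowest. Whether Nfil3 acts on Per2 or Cry1 in these cells was not tested.

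Known C/EBP targets numbered 26, of which 17 could be tested, and their median log2 ratio stayed between -0.03 and 0.02. At 2 h 4 were higher and 1 lower, at 4 h 6 and 3, at 24 h 6 and 3, and at 48 h 8 and 2. Beside them stand 10.1%, 19.7%, 24.4% and 27.1% of all genes higher and 18.5%, 30.4%, 29.5% and 30.6% lower. Pparg, the nuclear receptor of fat cell formation, reached 1.54 ± 0.19 (SD, n = 3) at 24 h (limma adjusted p = 8.2e-09) and 1.09 ± 0.28 at 48 h. Scd, the desaturase of fatty acid synthesis, reached 1.32 ± 0.19 at 48 h (limma adjusted p = 6.4e-10), from -0.24 at 4 h. Gadd45a, a growth arrest gene, read 0.51, 0.40 and 0.30 at 2 h and had its highest mean, 0.80 ± 0.18, at 24 h (limma adjusted p = 2.9e-06). Its 2 h and 48 h values of 0.40 and 0.43 turned to -0.02 and -0.04 under median centring. Gadd45a and Pparg shared with Cebpb a highest value on slide 1 at every time.

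Smaller changes were called in the same list. Igfbp1, an IGF-binding protein, was -0.19 at 2 h, -0.23 at 24 h and -0.20 at 48 h (limma adjusted p = 0.0053, 0.00037 and 0.0013). Gap43, the growth cone protein, was -0.25 at 4 h and 0.29 at 48 h (limma adjusted p = 0.0063 and 0.0023), the latter turning to -0.54 under median centring. Cdkn1a, the cell cycle inhibitor p21, fell to -0.36 ± 0.11 at 48 h (limma adjusted p = 2.1e-05). Arginase, Arg1, was called lower at 24 h (limma adjusted p = 4.2e-05), with the reference at least 1.25-fold higher since green was well above background on 0 of 3 arrays there, and it was 0.01 under median centring.

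Of 10 known PAR bZIP targets, 5 could be tested, and their median ran from 0.05 at 2 h to 0.14 at 4 and 24 h and 0.23 at 48 h. With 5 genes the median is the value of 1 gene. That gene was Nampt at 2, 4 and 24 h, which was not called at any time, and Tshb at 48 h. Higher and lower calls numbered 1 and 1 at 2 h, 2 and 1 at 4 h, 2 and 1 at 24 h, and 3 and 1 at 48 h. The list is small, and the shares of all genes were 10.1%, 19.7%, 24.4% and 27.1% higher and 18.5%, 30.4%, 29.5% and 30.6% lower. Por, which passes electrons to cytochromes P450, was highest at 24 h, at 0.80 ± 0.05 (SD, n = 3, limma adjusted p = 4.6e-08). Alas1, the rate-limiting enzyme of haem synthesis, read -0.17, 0.06 and 0.44 at 2, 4 and 24 h and reached 0.65 ± 0.02 at 48 h (limma adjusted p = 4.7e-09), but its 24 h and 48 h values turned to -0.18 and -0.03 under median centring. Pdxk, the vitamin B6 kinase, was 0.24 ± 0.05 at 4 h and -0.34 ± 0.06 at 24 h (limma adjusted p = 0.00019 and 5.4e-06). At 48 h, when Dbp was highest, Pdxk was -0.29 ± 0.04 (limma adjusted p = 2.5e-05). Whether Dbp acts on Pdxk in these cells was not tested. Tshb, the beta chain of thyrotropin, was 0.15 at 2 h, -0.19 at 4 h and 0.23 at 48 h (limma adjusted p = 0.032, 0.0042 and 0.00077). The 2 h and 48 h values turned to -0.66 and -0.64 under median centring. The mean log2 green signal of Tshb was 13.64 to 14.22 over the times, against 13.19 to 13.75 for Gap43. Which transcript the Tshb probe reads in these cells was not tested.

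**Figure D4:**
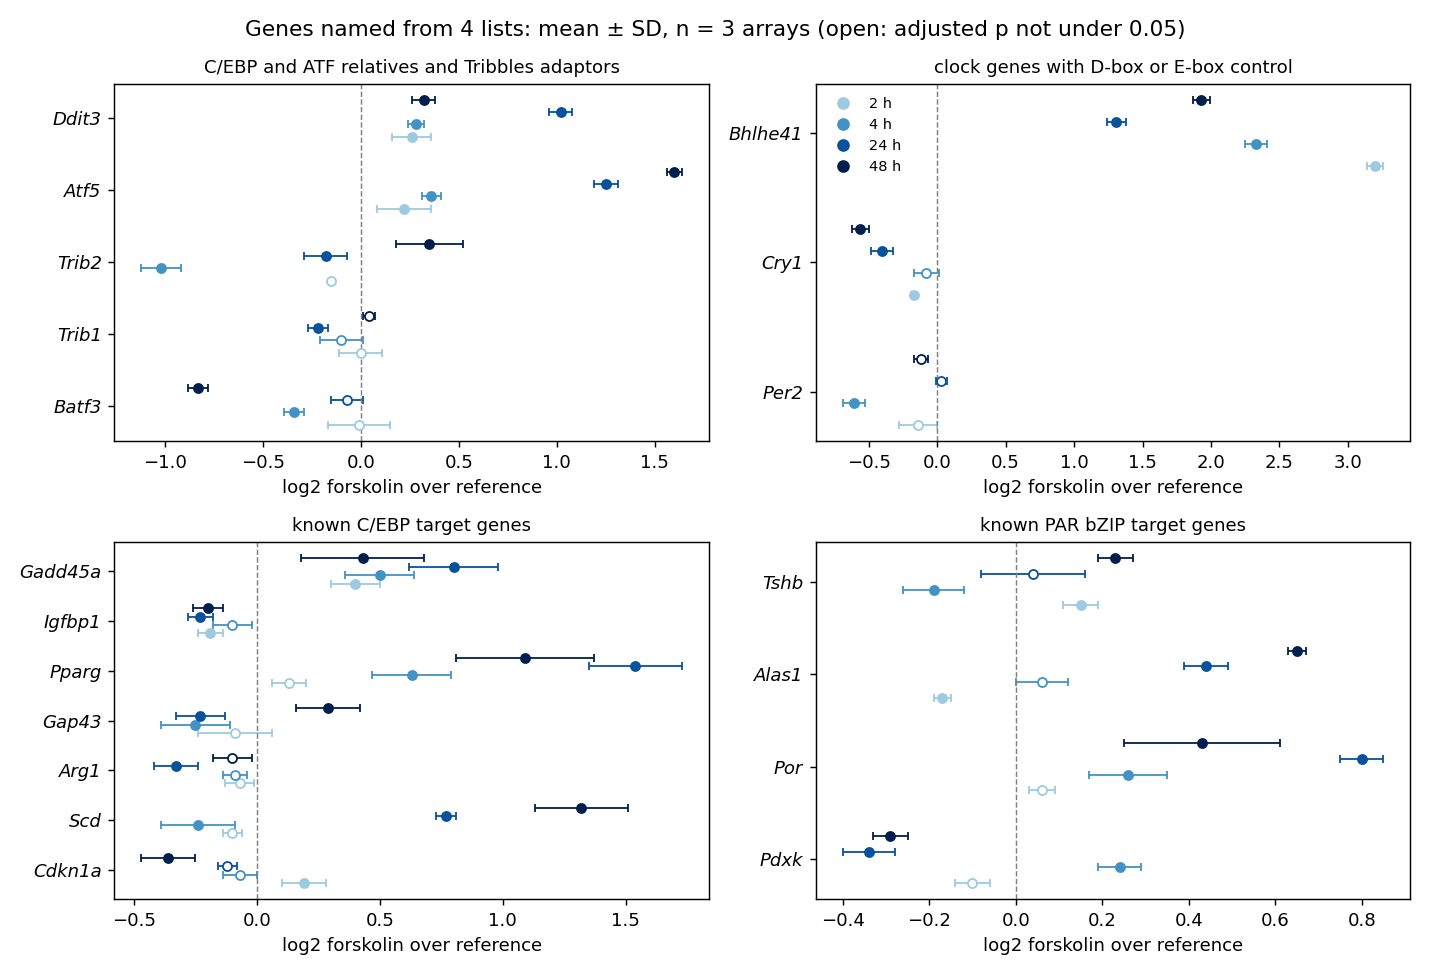
Mean log2 ratio of forskolin over reference (horizontal axis, with SD bars, n = 3 arrays) at 4 times for the genes named from the lists of relatives, clock genes, C/EBP targets and PAR bZIP targets. Filled points passed the adjusted p of 0.05; Bhlhe41 at 2 h, at 3.20, lies farthest right.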

How the data were processed

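The authors deposited scanner output of Agilent Feature Extraction 9.5.1.1 for 12 arrays, with an intensity per spot and channel, per the file headers, and a table of log2 ratios, for which limma is named per the submitters' processing notes. The deposited log2 values ran red over green against the scanner values (r from -0.946 to -0.909 over bright spots), so their sign was turned, and they served as an alternative. The sources used here do not give their centring.

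Mean signals were corrected with normexp (offset 50) and loess-normalized within arrays in limma 3.58.1 (R 4.3.3), with control spots at weight 0 and outlier spots left out. Spots were averaged per probe. A probe was kept if well above background in 1 channel on all 3 arrays of a time, which left 20419 of 41012 probes, and the brightest stood for its gene. lmFit and eBayes on all 12 arrays tested each time mean against 0, each step and, by F, equality of times, with Benjamini-Hochberg adjustment over 17635 genes. The number of arrays limits the precision.

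The members, lists and rules were chosen with earlier results of these data known. Named are all members, the 5 genes most like Nfil3, Cebpb and Dbp, and, from each of 4 lists, the called gene with the largest rise and fall at each time. Names were updated through RefSeq: 10735 probes matched by accession, 5571 by current symbol and 3729 by synonym, and 20977 kept the file's name. The fit was tested on simulated data.

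Slide equals replicate number. Deviations of same-numbered arrays from their time means correlated at 0.0521 to 0.48 (median 0.227) over 18 pairs. The median for arrays of other numbers was -0.212. Deviations within a time cancel by construction, which pushes that second median down, so it is not an independent baseline. Not every same-numbered pair passed 0.1, and the slide was used as a block only as an alternative. The main tests of steps between times thus leave out the pairing by slide.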

Additional observations from a re-analysis of the deposited data

Results flagged for a closer look

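Members called in opposite directions at different times were looked at again. Nfil3 was called higher at 24 h and lower at 48 h, a difference of -0.44 (limma adjusted p = 6.5e-05), with every array of each time on its side of 0. Dbp was called lower at 4 h and higher at 24 h, a difference of 0.50 (limma adjusted p = 3e-05). Hlf was called higher at 4 h and lower at 24 h, a difference of -0.75 (limma adjusted p = 1.5e-06). Cebpg was called higher at 4 h and lower at 48 h, a difference of -0.30, which was not tested. With 1 array left out, the calls of Nfil3 at 48 h, Dbp at 4 h and Cebpg at 4 and 48 h were each lost in at least 1 fit. The limma adjusted p then reached 0.13, 0.1, 0.13 and 0.3 in that order. Under median centring Nfil3 at 24 h turned to -0.12 and Cebpg at 4 h to -0.30. The Dbp call at 4 h was lost (limma adjusted p = 0.28), as was the Nfil3 step from 24 to 48 h (limma adjusted p = 0.096). Hlf kept both calls, at 0.48 and -0.19 (limma adjusted p = 3.5e-05 and 0.045).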

How the results depend on the processing

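The authors' values, turned to green over red, kept all 28 values (7 members at 4 times) on their side of the threshold, as did the stricter filter on dim probes and the replicate block. Members called from 2 to 4 h went from 2 to 1 with normexp offset 0, with processed signals and with no filter on dim probes, and to 0 under median centring. At 48 h processed signals left 3 of 6 calls, losing Nfil3, Cebpg and Tef. At 2 h median centring gave 5 calls in place of 3, and from 24 to 48 h it gave 0 in place of 3. Only the rise of Cebpb was called in both fits at 2 h. Nfil3 lost its call (limma adjusted p = 0.065), and Cebpg was called lower in place of higher. Cebpd was added as lower, and Tef and Hlf as higher. With the replicate block, calls from 24 to 48 h rose to 5, with Cebpb and Cebpg added, the latter at -0.22 (limma adjusted p = 0.021), and the block changed no call at the 4 times. Leaving out each array in turn gave 1 to 3 members called from 2 to 4 h, 3 to 5 at 4 h (lowest without replicate 2 at 4 h) and 2 to 5 from 24 to 48 h (highest without replicate 1 at 48 h). Of 336 values of members at the 4 times over these fits, 323 kept their side of the threshold, 13 lost a call and 0 reversed one. Median centring put the median of all genes at -0.58, -0.59, -0.45 and -0.46 at 2, 4, 24 and 48 h. Relative to it, signs turned for Nfil3 at 24 h (-0.12), Cebpd at 24 h (-0.18), Cebpg at 2, 4 and 24 h (-0.29, -0.30 and -0.37) and Tef at 2, 24 and 48 h (0.42, 0.19 and 0.21). They also turned for Nfil3 minus Tef at 2, 24 and 48 h (-0.24, -0.30 and -0.76) and Nfil3 minus Hlf at 2 and 48 h (-0.13 and -0.50). The cause was not tested. Tef, Hlf and the dimmer Cebpg probe had green signals of 1.43, 1.73 and 1.49 times local background, which limits their small changes. The green signal of Dbp was 2.29 times local background.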

Other observations

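Other genes of the lists shared the slide pattern of Cebpb. Pparg, Gap43, Gadd45a and Nampt were highest on slide 1 at all 4 times, as were 1452 of 17635 genes tested (8.24%), against 181 (1.03%) for slide 2 and 350 (1.99%) for slide 3. These genes were named after their values were seen. Whether slide, scan or culture underlies this was not tested, since each slide holds 1 replicate number and 1 scan.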
